A study of Mus musculus with 12 samples.

Results

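The report covers 10 genes of the immediate early class, *Fos*, *Fosb*, *Jun*, *Junb*, *Egr1*, *Egr2*, *Atf3*, *Ier2*, *Nr4a1* and *Myc*. They were chosen by symbol from a table of 19308 genes counted by RNA-seq in 12 mouse hearts, and all 10 were found. Each gene was read in 4 groups of 3 C57BL/6 hearts: WT after sham surgery, *Fabp3*-null (F3-KO) after sham surgery, WT after transverse aortic constriction (TAC) and F3-KO after TAC. In TAC the aortic arch is tied down around a needle that is then withdrawn, which leaves a narrowing and loads the left ventricle with pressure. Mice were operated at 8 weeks of age and hearts were collected 1 week after surgery. F3-KO mice carry a CRISPR-Cas9 knockout in every tissue of *Fabp3*, which encodes a fatty acid carrier of the heart, so that no difference can be assigned to one cell type of the heart. WT hearts carry no engineered allele, and the sham and TAC hearts differed by the constriction.

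Immediate early genes are transcribed within minutes of a stimulus from factors that are already present in the cell, without new protein synthesis, and most of their transcripts are short-lived. In the heart, stretch, adrenergic agonists and a sudden pressure load are known to induce them through MAP kinases, which act on serum response factor (SRF) at CArG boxes and on CREB at cyclic AMP response elements. FOS and FOSB pair with JUN and JUNB to form AP-1, the EGR proteins are zinc finger factors, ATF3 is a stress-induced partner of the AP-1 proteins, NR4A1 is an orphan nuclear receptor, IER2 is a small nuclear protein, and MYC drives growth and ribosome production.

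Promoter windows of RefSeq (build GRCm38.p6, 250 bases before to 50 bases after a transcription start) were found for 7 of the 10 genes, in 11 windows. *Egr1*, *Ier2* and *Myc* were not matched. The windows of *Fos*, *Egr2*, *Fosb* and *Nr4a1* are printed because these genes were among the 5 that varied most between hearts, as described below. Capitals mark matches to the cyclic AMP response element core TGACGT, to the EGR site GCGGGGGCG or GCGTGGGCG, to the TATA box TATAAA, or to the CArG box, each searched on both strands, so that reverse complements are in capitals too. No matches within a window overlap.
Fos, chr12:85473640-85473939, plus strand: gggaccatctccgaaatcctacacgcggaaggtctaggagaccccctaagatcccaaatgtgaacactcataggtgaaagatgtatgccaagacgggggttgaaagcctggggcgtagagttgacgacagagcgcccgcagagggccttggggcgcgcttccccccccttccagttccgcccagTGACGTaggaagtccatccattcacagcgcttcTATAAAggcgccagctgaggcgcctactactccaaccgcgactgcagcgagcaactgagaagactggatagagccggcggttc
Egr2, chr10:67537619-67537918, plus strand: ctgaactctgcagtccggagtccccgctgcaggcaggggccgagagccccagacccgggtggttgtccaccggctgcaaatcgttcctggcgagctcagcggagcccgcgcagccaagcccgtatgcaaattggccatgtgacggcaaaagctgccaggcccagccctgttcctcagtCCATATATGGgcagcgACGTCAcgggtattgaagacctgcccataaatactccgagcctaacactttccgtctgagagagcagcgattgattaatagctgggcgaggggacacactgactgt
Fosb, chr7:19309996-19310295, minus strand: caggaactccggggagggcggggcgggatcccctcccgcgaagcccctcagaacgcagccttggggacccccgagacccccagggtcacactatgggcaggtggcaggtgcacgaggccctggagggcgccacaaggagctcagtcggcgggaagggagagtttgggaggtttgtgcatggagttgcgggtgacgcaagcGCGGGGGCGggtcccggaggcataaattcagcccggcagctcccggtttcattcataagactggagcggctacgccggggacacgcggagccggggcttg
Nr4a1, chr15:101266596-101266895, plus strand: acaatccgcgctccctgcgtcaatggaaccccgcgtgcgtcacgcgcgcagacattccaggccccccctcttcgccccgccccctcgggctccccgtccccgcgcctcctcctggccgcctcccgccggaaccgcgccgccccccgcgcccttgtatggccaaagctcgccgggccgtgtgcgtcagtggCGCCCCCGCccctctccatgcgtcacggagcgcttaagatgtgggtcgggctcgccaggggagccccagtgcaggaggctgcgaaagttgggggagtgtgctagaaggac
In the *Fos* window the response element core starts 66 bases and the TATA box 33 bases before the start. The *Egr2* window holds a CArG box 72 bases before the start, and a response element core on the opposite strand 56 bases before it. A CArG box was present in 4 of the 5 *Egr2* windows, which cover partly the same bases. *Fosb* and *Nr4a1* each hold an EGR site, 50 bases and, on the opposite strand, 60 bases before the start. Of all 32851 windows of this length, 1.63% held a CArG box, 7.51% the response element core, 3.47% an EGR site and 13.6% a TATA box. The AP-1 site TGANTCA, found in 7.81% of all windows, was in none of the 11. The window of *Atf3* held the response element core on the opposite strand 8 bases before the start, that of *Junb* a TATA box at the start itself, and that of *Jun* none of the motifs. The matches describe letters and carry no measure of binding.

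Libraries held 10424334 to 14372011 counts, so that 3 counts, the limit taken for a value of 0, correspond to 0.209 to 0.288 CPM, counts scaled to the size of the library. These limits cover counting error only. The targeted gene *Fabp3* was counted in every heart, at 2117 to 3064 CPM in WT and 1002 to 1143 CPM in F3-KO hearts. The defining markers of cardiomyocytes summed to 36898 CPM or more in each heart, and none of these markers was at or under 3 counts throughout. The lung markers *Sftpc* and *Scgb1a1* were both at 0 in F3-KO TAC replicates 2 and 3 and between 6.14 and 24.4 CPM in the other 10 hearts. Summed atrial markers reached 24.0 and 24.7 CPM in F3-KO sham replicate 2 and F3-KO TAC replicate 2, against 7.0 CPM or less elsewhere. In whole-heart RNA, a change in the number of cells of a type and a change in RNA per cell cannot be told apart.

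All 10 genes passed the filter on low counts, which kept 14094 genes. CPM values are normalised for library size and composition with TMM. Per kilobase of the longest protein-coding transcript of the gene in GENCODE M21, the highest mean over the 12 hearts was that of *Nr4a1*, 32.8 CPM per kb, with a range of 10.6 to 80.5. *Jun* followed at 27.1 (18.6 to 35.0), within the range of *Nr4a1*. The order of the means of these genes differed by operation: *Nr4a1* was above *Jun* after sham (59.8 against 20.7 CPM per kb in WT, 29.1 against 24.5 in F3-KO) and below it after TAC (28.9 against 31.9 in WT, 13.3 against 31.1 in F3-KO). *Junb* had 13.3 CPM per kb (9.74 to 18.3), which did not overlap *Jun*. *Ier2* at 11.7, *Atf3* at 7.83 and *Egr1* at 5.63 CPM per kb came next, each with a range that overlapped its neighbours. *Fos* stood at 3.32 (1.06 to 10.2) and *Myc* at 3.03 CPM per kb (1.69 to 6.95), again with overlap. The lowest were *Fosb* at 0.675 and *Egr2* at 0.597 CPM per kb, with ranges of 0.262 to 2.31 and 0.111 to 1.68. *Egr2* had 4 counts in its lowest heart and 78 in its highest. Group means of *Fos* were 6.58 (WT) and 1.70 CPM per kb (F3-KO) after sham and 1.91 (WT) and 3.09 CPM per kb (F3-KO) after TAC, and only in WT sham hearts was this above the mean of *Myc*.

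*Fos*, the dimerisation partner of the JUN proteins, was highest in sham-operated WT hearts, with 8.84, 11.4 and 21.4 CPM. F3-KO sham hearts had 4.32, 2.68 and 3.76 CPM, WT TAC hearts had 3.69, 3.88 and 4.50 CPM, and F3-KO TAC hearts had 13.0, 4.34 and 2.23 CPM. The WT sham hearts lay above all hearts of F3-KO sham and WT TAC, whereas the F3-KO TAC hearts spread over the range of the other groups, with replicate 1 among the WT sham hearts. Relative to WT sham hearts, the edgeR log2 fold change was −1.79 ± 0.53 (SE) for WT TAC and −1.95 ± 0.53 for F3-KO sham, with adjusted p of 0.782 and 0.348. Both contrasts use the same 3 WT sham hearts. Neither passed the threshold of 0.05.

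*Fosb*, a close relative of *Fos*, lay between 1.80 and 2.91 CPM in all 6 sham hearts and between 1.32 and 2.51 CPM in WT TAC hearts. In F3-KO TAC it was 8.73 CPM in replicate 1 and 1.08 and 0.990 CPM in the other two hearts. The highest and the lowest *Fosb* values of the 12 hearts were therefore in the same group.

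*Jun*, the main partner of FOS in AP-1, was 61.4, 59.3 and 77.4 CPM in WT sham hearts and 88.2, 109 and 108 CPM in WT TAC hearts, without overlap. F3-KO sham hearts had 64.4, 74.6 and 95.6 CPM, and F3-KO TAC hearts had 112, 106 and 79.8 CPM, where the lowest TAC heart fell inside the sham range. *Junb*, a weaker activator than JUN, had 18.5, 17.6 and 17.7 CPM in F3-KO sham hearts, the tightest group of this gene. Its WT sham hearts had 19.9, 30.1 and 33.1 CPM, all above F3-KO sham. In TAC hearts *Junb* ranged from 17.6 to 31.2 CPM in WT and from 18.3 to 31.6 CPM in F3-KO.

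*Egr1*, an activator of growth and matrix genes, was 10.4, 37.0 and 38.5 CPM in WT sham and 23.1, 22.6 and 17.8 CPM in F3-KO sham hearts. After TAC it was 9.34, 23.5 and 22.1 CPM in WT and 57.8, 30.4 and 10.2 CPM in F3-KO hearts. No 2 groups were separated. *Egr2* stayed at or below 2.21 CPM in the 9 hearts outside F3-KO TAC, and was 4.40, 4.98 and 0.33 CPM in that group, which thus held the highest and the lowest heart. *Ier2*, a small nuclear protein of the class, ranged from 11.8 to 25.0 CPM over all hearts, and in each comparison of the design its groups overlapped. *Atf3*, a stress-induced bZIP factor, ranged from 8.80 to 37.6 CPM with overlap between all groups. Its highest value was that of WT TAC replicate 3, against 19.6 CPM in the next heart.

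*Nr4a1*, an orphan nuclear receptor, was 205, 63.9 and 189 CPM in WT sham hearts and 70.7, 109 and 42.9 CPM in F3-KO sham hearts. It was 60.8, 37.3 and 123 CPM in WT TAC hearts and 42.3, 32.7 and 27.0 CPM in F3-KO TAC hearts. Group means were 153 ± 77.4, 74.3 ± 33.4, 73.8 ± 44.5 and 34.0 ± 7.73 CPM (SD, n = 3) in this order, and only F3-KO TAC was separated from its sham group. *Myc*, a growth factor-responsive regulator of transcription, was 4.57, 3.94 and 4.83 CPM in WT sham and 4.32, 4.50 and 6.69 CPM in F3-KO sham hearts. In TAC hearts it was 16.2, 7.66 and 6.50 CPM in WT and 8.5, 7.72 and 9.48 CPM in F3-KO. *Myc* was thus higher in each TAC heart than in each sham heart of its own genotype.

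**Figure D1:**
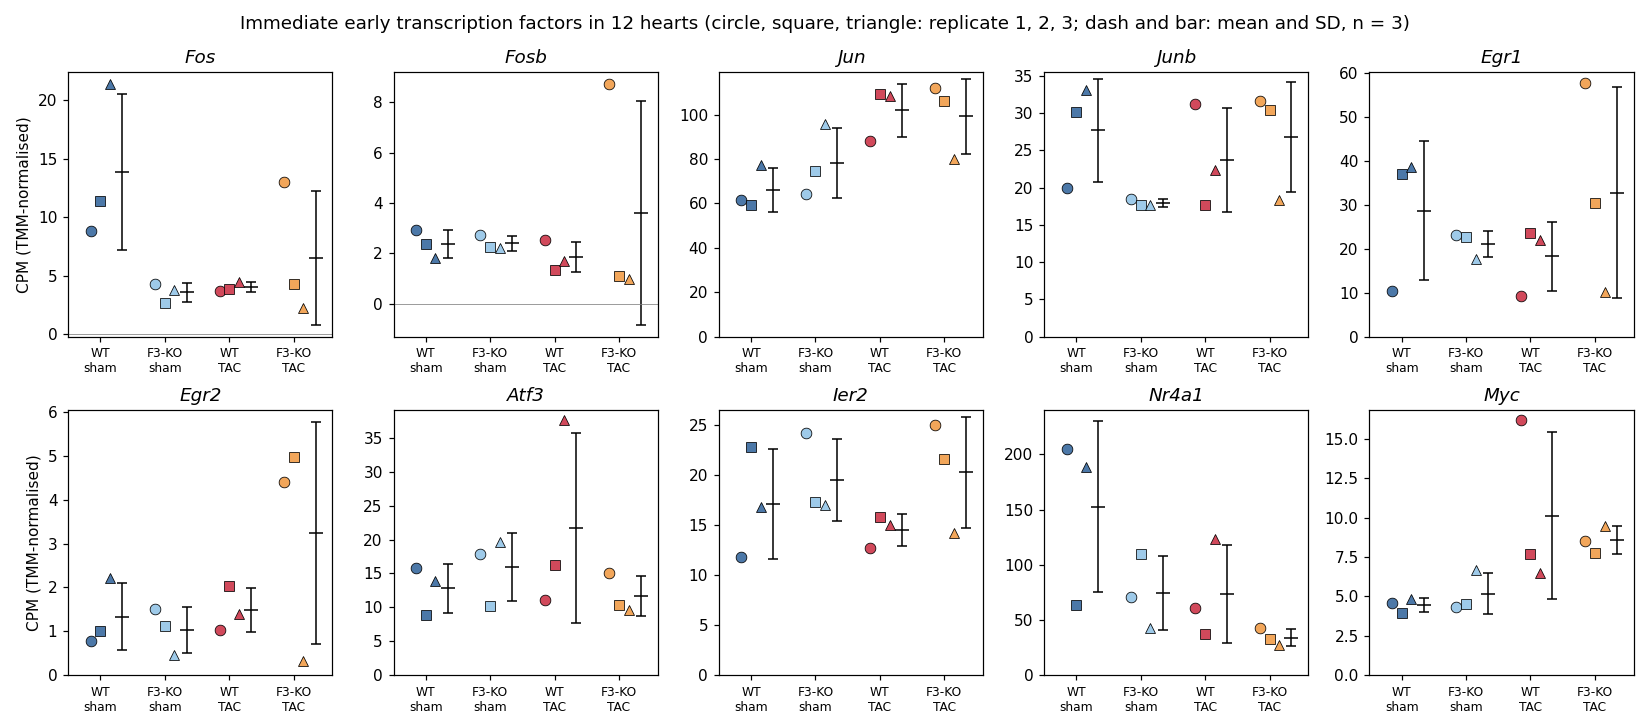
Level of each gene in CPM (TMM-normalised, linear axis per gene) in the 12 hearts by group, with the mean and SD of each group (n = 3) beside the points. *Fos* is highest in the WT sham hearts (8.84 to 21.4 CPM), *Myc* is higher after TAC in both genotypes, and F3-KO TAC replicate 1 stands high for *Fosb* (8.73 CPM) and *Egr1* (57.8 CPM).

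The first comparison asked whether the pressure load changed the 10 genes in WT hearts. None passed an adjusted p of 0.05 in edgeR, DESeq2 or limma, and in edgeR 0.0% of the 14094 genes did. At an unadjusted p under 0.05, 3 of 10 passed in each of the 3 tools, against 6.28% of all genes in edgeR. These were *Myc* with a log2 fold change of 1.19 ± 0.32, *Jun* with 0.62 ± 0.18 and *Fos* with −1.79 ± 0.53. The TAC and sham hearts did not overlap for the same 3 genes, against 9.1% of all genes. Without WT TAC replicate 1, its highest heart, *Myc* was 0.67. The other 7 lay between −1.05 ± 0.49 (*Nr4a1*) and 0.75 ± 0.41 (*Atf3*, 0.09 without WT TAC replicate 3). The median over the 10 genes was −0.23, beside 0.0 over all genes, with 4 genes higher and 6 lower.

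In F3-KO hearts none of the 10 passed an adjusted p of 0.05 in the 3 tools, and 0.0% of all genes did in edgeR. At an unadjusted p under 0.05, 3 of 10 passed in edgeR, 4 in DESeq2 and 1 in limma, against 17.1% of all genes in edgeR. *Myc* had a log2 fold change of 0.73 ± 0.32, *Junb* of 0.58 ± 0.26 and *Nr4a1* of −1.13 ± 0.50, the latter −0.75 without F3-KO sham replicate 2. TAC and sham hearts did not overlap for *Myc* and *Nr4a1*, 2 of 10, against 22.9% of all genes, so that the share was close to the background. The largest value was that of *Egr2*, 1.65 ± 0.77 with adjusted p = 0.296. Without F3-KO TAC replicate 3, its lowest heart, *Egr2* was 2.17 ± 0.53 with an edgeR adjusted p of 0.0439, in a fit in which 5.43% of all genes passed. The median over the 10 genes was 0.58, beside 0.02 over all genes, with 8 genes higher and 2 lower. This direction rested in part on F3-KO TAC replicate 1. Without that heart *Fos* (−0.12), *Fosb* (−1.21), *Egr1* (−0.06) and *Ier2* (−0.13) turned from higher to lower. Without F3-KO TAC replicates 2 and 3, in which lung markers were near 0, 1 heart of the group remained and was taken to vary like the other groups. In that fit *Fos* was 1.85 and *Fosb* 1.86, in place of 0.86 and 0.58. The heart kept was the highest of its group for both genes. The fit holds no spread of that group, so that no p is given for it.

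Averaged over both genotypes, which uses all 12 hearts, TAC again called none of the 10 genes in edgeR or limma, against 0.078% of all genes in edgeR. At an unadjusted p under 0.05, 3 of 10 passed in each tool, against 17.8% of all genes in edgeR. These were *Myc* at 0.96 ± 0.23 (adjusted p = 0.104), *Jun* at 0.48 ± 0.13 (adjusted p = 0.108) and *Nr4a1* at −1.09 ± 0.35 (adjusted p = 0.156). Mean levels were 9.35 CPM in TAC and 4.81 CPM in sham hearts for *Myc*, 100.5 and 72.1 CPM for *Jun*, and 53.9 and 113.5 CPM for *Nr4a1*. No gene of the 10 had all 6 TAC hearts apart from all 6 sham hearts, as 0.837% of all genes had. DESeq2 called *Myc* (0.95 ± 0.25, adjusted p = 0.011) and *Jun* (0.48 ± 0.14, adjusted p = 0.0224), in a test that called 4.06% of all genes. Without F3-KO TAC replicate 3, edgeR called *Myc* (0.92 ± 0.24, adjusted p = 0.0486) and *Jun* (0.55 ± 0.12, adjusted p = 0.0313), and 5.92% of all genes. The heart left out was the lowest TAC heart for *Jun* (79.8 CPM). With any other single heart left out, edgeR called none of the 10. Without F3-KO TAC replicates 2 and 3 it called 0 of 10 and 2.15% of all genes, with 4 of 10 and 17.7% of all genes at an unadjusted p under 0.05. That fit holds 1 heart of the F3-KO TAC group and thus no spread of it. These counts therefore cannot decide whether a gene changed, and no p is given for single genes. In that fit *Myc* was 0.95 and *Jun* 0.57.

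In a test that permuted sham and TAC within each genotype, *Myc*, *Jun* and *Nr4a1* had the lowest p. That test read the same contrast in the same hearts as edgeR, so that it is not separate support. The mean difference in log2 CPM was 0.89 for *Myc*, with a two-sided exact permutation p of 0.005, which is the smallest that the 400 arrangements allow. For *Jun* it was 0.49 (exact p = 0.015) and for *Nr4a1* −1.05 (exact p = 0.03). All 6 TAC hearts lay above the sham mean of their own genotype for *Myc* and *Jun*, and none did for *Nr4a1*. These exact p are not corrected for the 10 genes. For the remaining 7 genes the exact p was between 0.31 (*Fos*) and 0.835 (*Egr1*), and between 2 and 4 of the 6 TAC hearts lay above their sham mean.

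Macrophage and fibroblast markers were higher in the same contrast. All 5 macrophage markers were higher after TAC at an unadjusted edgeR p under 0.05 (0 called by edgeR and limma, 4 by DESeq2). Their summed level was 126 to 248.8 CPM in WT sham, 198 to 236 CPM in F3-KO sham, 246 to 355 CPM in WT TAC and 317 to 449 CPM in F3-KO TAC hearts. Of 5 fibroblast markers, 4 were higher at that level (0 called by edgeR and limma, 3 by DESeq2), with sums of 588 to 1369 CPM, 828 to 1108, 973 to 1927 and 1307 to 4159 CPM in this order. Cardiomyocyte markers summed to 40358 to 61561 CPM, 58974 to 68306 CPM, 48261 to 73238 CPM and 36898 to 47119 CPM. Of 5 cardiomyocyte markers, *Tnni3* (−0.49 ± 0.19) and *Myh6* (−0.49 ± 0.21) were lower at an unadjusted edgeR p under 0.05, and 0 were called. None of the endothelial, smooth muscle, neutrophil and red blood cell markers passed that level in this contrast. Within genotypes, the 4 red blood cell markers were lower after TAC in F3-KO hearts (median −2.19, all 4 at that level). In WT hearts they were higher (median 0.78, 0 at that level). The part of these cells in the values of *Myc*, *Jun* and *Nr4a1* was not tested.

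**Figure D2:**
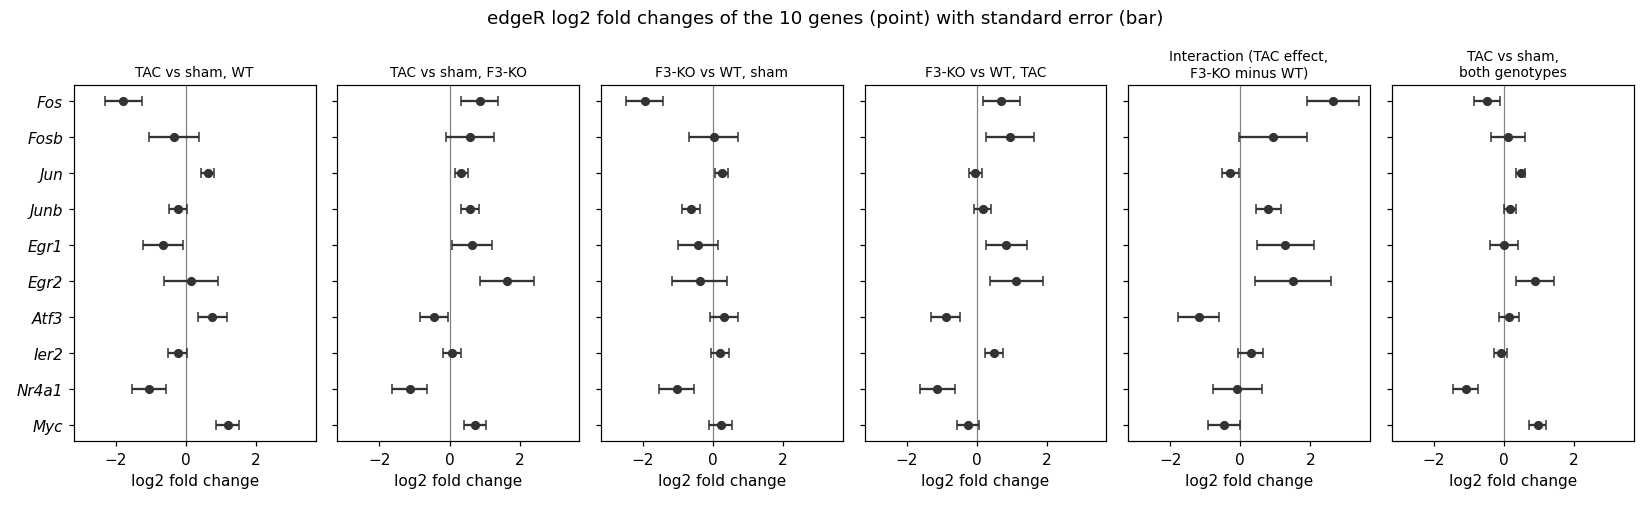
edgeR log2 fold changes of the 10 genes (points) with their standard errors (bars) in the 6 comparisons. *Myc* and *Jun* lie right of 0 and *Nr4a1* left of 0 for TAC against sham in both genotypes, *Fos* has opposite signs in WT (−1.79) and F3-KO hearts (0.86), and no gene passed an adjusted p of 0.05. Without F3-KO TAC replicate 1 the F3-KO value of *Fos* was −0.12.

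The loss of *Fabp3* was compared within each operation. After sham surgery none of the 10 genes passed an adjusted p of 0.05 in edgeR, DESeq2 or limma, against 0.106% of all genes in edgeR. At an unadjusted p under 0.05, 2 of 10 passed in each tool, *Fos* (−1.95 ± 0.53) and *Junb* (−0.63 ± 0.26), against 6.02% of all genes in edgeR. The same 2 genes did not overlap between F3-KO and WT sham hearts, against 13.7% of all genes, and both were lower in F3-KO. *Nr4a1* was −1.04 ± 0.49 with overlapping hearts, and the others lay between −0.44 ± 0.57 (*Egr1*) and 0.31 ± 0.41 (*Atf3*).

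After TAC none passed the adjusted p in the 3 tools, against 0.078% of all genes in edgeR. At an unadjusted p under 0.05, 1 of 10 passed in edgeR, 2 in DESeq2 and 0 in limma, against 10% of all genes in edgeR. The gene passing in edgeR was *Nr4a1*, lower in F3-KO by a log2 fold change of −1.12 ± 0.50 (adjusted p = 0.493) and by −0.53 without WT TAC replicate 3. None of the 10 genes was without overlap between F3-KO and WT TAC hearts, against 11.4% of all genes. *Fosb* (0.95 ± 0.69), *Egr1* (0.85 ± 0.58) and *Egr2* (1.13 ± 0.75) did not pass at either level, and *Egr1* was 0.15 without F3-KO TAC replicate 1. Without F3-KO TAC replicate 1 the value of *Fosb* turned to −0.83, and with only replicate 1 of that group kept it was 2.23.

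The interaction asked whether the TAC effect differed between the genotypes. In edgeR 0 of the 10 genes and 0.0% of all genes passed the adjusted p, and DESeq2 and limma called 0 of the 10 as well. At an unadjusted p under 0.05, 2 of 10 passed in edgeR, 3 in DESeq2 and 1 in limma, against 4.48% of all genes in edgeR. *Fos* had the largest value, 2.65 ± 0.75 with adjusted p = 0.954, made up of −1.79 in WT and 0.86 ± 0.53 in F3-KO hearts. It reads again the WT sham hearts, at 8.84 to 21.4 CPM, that entered the WT TAC and F3-KO sham contrasts. It is therefore not a separate result. All 3 WT TAC hearts lay below the WT sham mean of *Fos*, and 2 of 3 F3-KO TAC hearts lay above the F3-KO sham mean. Without F3-KO TAC replicate 1 the interaction of *Fos* was 1.67, and with only replicate 1 of that group kept it was 3.64. *Junb* was 0.80 ± 0.36 and *Atf3* −1.19 ± 0.58, both with adjusted p = 0.954, and *Atf3* was −0.53 without WT TAC replicate 3.

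Of the 10 genes, 9 varied between hearts of one group by more than the median gene. The SD of log2 CPM between hearts of one group, pooled over the 4 groups with 8 degrees of freedom, had a median of 0.25 over all tested genes. It was 1.10 for *Egr2*, 0.91 for *Egr1*, 0.88 for *Fosb*, 0.74 for *Nr4a1* and 0.72 for *Fos*, which are the 5 genes above the 90th percentile of all tested genes. *Atf3* (0.58), *Myc* (0.40), *Junb* (0.36) and *Ier2* (0.36) lay above the median, and *Jun* (0.24) lay just below it, at the 45.8th percentile. *Egr2* and *Fosb* had as few as 4 and 12 counts in a heart, whereas *Nr4a1* and *Egr1* had at least 327 and 107. Leaving out F3-KO TAC replicate 1, the percentile of *Fosb* fell from 94.5 to 61.2 and that of *Fos* from 91.9 to 80.7. Leaving out WT TAC replicate 1, that of *Myc* fell from 74.2 to 45.1. Over all single hearts left out, the lowest percentile was 92.9 for *Egr1*, 89.2 for *Egr2* and 88.6 for *Nr4a1*.

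**Figure D3:**
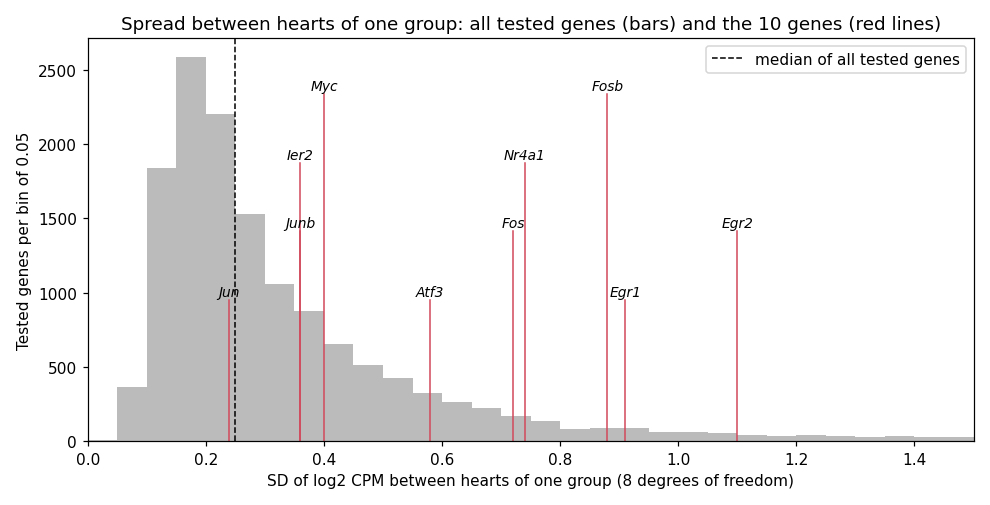
Histogram of the SD of log2 CPM between hearts of one group for all tested genes (bars of width 0.05; x axis shown to 1.5), with the 10 genes as red lines of arbitrary height and the median of all tested genes (0.25) as a dashed line. *Egr2*, *Egr1*, *Fosb*, *Nr4a1* and *Fos* lie in the right tail, and *Jun* (0.24) lies beside the median.

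By the median deviation of the 10 genes from their group means, 2 hearts stood out most. F3-KO TAC replicate 1 was the highest heart of its group for 8 of the 10 genes, the exceptions being *Egr2* and *Myc*, and the highest of all 12 for *Fosb*, *Jun*, *Egr1* and *Ier2*. F3-KO TAC replicate 3 was the lowest of its group for 9 of the 10, with *Myc* the exception, and the lowest of all 12 for 4. The median deviation of the 10 genes from their group mean was 0.37 in the first and −0.49 in the second of these hearts on the log2 scale. In the remaining 10 hearts it lay between −0.27 and 0.26. WT sham replicate 3 was highest in its group for 6 genes, among them *Fos*, *Egr1* and *Egr2*, and F3-KO sham replicate 1 for 6. Some genes deviated most in yet other hearts. These included *Nr4a1* in WT sham replicate 2 (−1.08), *Atf3* in WT TAC replicate 3 (0.98) and *Myc* in WT TAC replicate 1 (0.79).

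Summed markers of other cells differed between the F3-KO TAC hearts too. In F3-KO TAC replicates 1, 2 and 3 the endothelial markers summed to 1096, 830 and 607 CPM, and the smooth muscle markers to 249.8, 156 and 85.7 CPM. The macrophage markers summed to 449, 330 and 317 CPM, and the lung markers to 34.8, 0.0638 and 0.577 CPM. Fibroblast markers had 2186, 4159 and 1307 CPM, cardiomyocyte markers 47119, 36898 and 38654 CPM and hypertrophy markers 4516, 16127 and 27774 CPM. The order of the hypertrophy sum was that of *Myh7* alone (174.3, 8072.7 and 23125.8 CPM). *Nppb* had 625.8, 646.5 and 583.7 CPM, *Acta1* 3563.5, 3566.3 and 3044.4 CPM and *Nppa* 152.6, 3841.1 and 1019.9 CPM. Endothelial, smooth muscle and macrophage sums were thus highest in replicate 1 and lowest in replicate 3. Red blood cell sums had the same order (890.7, 840.7 and 374.9 CPM), and the lung, fibroblast, cardiomyocyte and hypertrophy sums did not. Not every single marker followed its sum: *Tek* (72.0, 70.4 and 71.4 CPM) and *Mrc1* (84.9, 49.7 and 74.7 CPM) were lowest in replicate 2. The part of these cells in the spread of the immediate early genes was not tested.

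**Figure D4:**
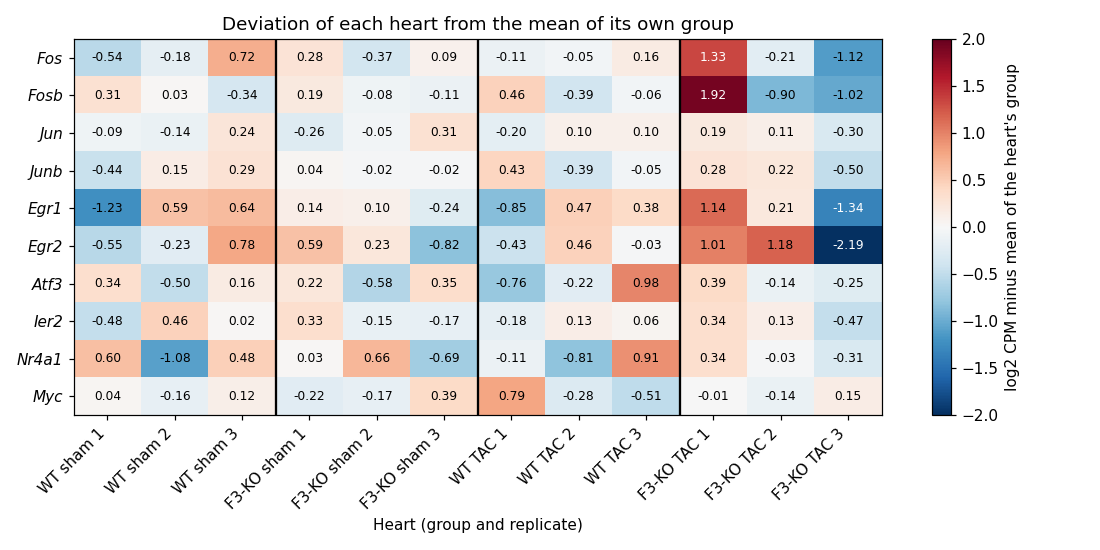
Deviation of log2 CPM from the mean of the heart's own group for the 10 genes (rows) in the 12 hearts (columns), on a colour scale from −2 to 2. F3-KO TAC replicate 1 is positive for 9 of the genes (up to 1.92, *Fosb*), and F3-KO TAC replicate 3 is negative for 9 (down to −2.19, *Egr2*).

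To describe how the genes moved together, deviations from the group means were correlated with those of *Fos* over 12 hearts, for the other 9 genes. Pearson's r was 0.78 for *Egr1* (Spearman's rho 0.71), 0.71 for *Egr2* (0.53), 0.69 for *Fosb* (0.34), 0.63 for *Ier2* (0.52), 0.62 for *Junb* (0.54) and 0.59 for *Jun* (0.50). It was 0.42 for *Atf3* (0.55), 0.21 for *Nr4a1* (0.14) and −0.08 for *Myc* (−0.17). With 100000 permutations within groups, none of the 9 passed a Benjamini-Hochberg adjusted p of 0.05, and the smallest was 0.277 for Pearson's r (permutation p = 0.065 for *Atf3* and 0.0698 for *Egr1* before adjustment) and 0.293 for Spearman's rho. Without F3-KO TAC replicates 1 and 3, the hearts farthest from the median of *Fos*, r was 0.55 for *Egr1*, 0.35 for *Egr2* and −0.17 for *Fosb*, so that the value of *Fosb* rested on these 2 hearts. Deviations of genes read from the same library share its composition.

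Other genes resembled *Fos* more closely. Over 13408 genes with a mean of at least 1 CPM, 135 had an r with *Fos* at least as high as that of *Egr1*. The 10 highest were *Cln8* (0.97), *Fbxl14* (0.96), *2310057M21Rik* (0.93), *Ipo9* (0.91), *Tdg* (0.90), *Mphosph6* (0.90), *Kcnmb1* (0.90), *Ube2t* (0.89), *Fam168b* (0.89) and *Slc7a7* (0.88), a description over 12 hearts without a test. None of these 10 is on the lists of primary response genes used here, and *Egr1*, the nearest of the class, ranked behind them.

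Genes of the surrounding pathway were read from lists, in the contrast of TAC with sham over both genotypes unless stated. Counts in edgeR are followed by those of DESeq2, and limma called 0 genes of each list before the hypertrophy markers, in all 6 comparisons. Of all genes in this contrast, as given above, 17.8% passed an unadjusted p of 0.05 in edgeR and DESeq2 called 4.06%. Of 37 other primary response genes tested, edgeR called 0, with 5 higher and 5 lower at an unadjusted p under 0.05, and DESeq2 called 6, with 2 higher and 4 lower. *Ier5*, a regulator of heat shock factor, had 0.82 ± 0.15 (adjusted p = 0.0652), with means of 35.4 and 88.9 CPM in sham and TAC hearts of WT and of 47.6 and 59.6 CPM in those of F3-KO. *Sik1*, a kinase that restrains CREB coactivators, had −0.76 ± 0.16 (adjusted p = 0.0969).

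Of 14 other AP-1 subunits and bZIP partners, edgeR called 0 and 4 were higher at the unadjusted level, while DESeq2 called 1, *Maf* (edgeR 0.54 ± 0.14, adjusted p = 0.105). *Mafk* had 0.37 ± 0.13. Upstream, 0 of 7 SRF and ternary complex factors, 0 of 8 CREB family members and coactivators and 0 of 19 MAP kinases were called in both tools, with 1, 0 and 2 lower and none higher at the unadjusted level. *Myocd*, a cardiac and smooth muscle coactivator of SRF, had −0.43 ± 0.14 (adjusted p = 0.154), and *Mkl1*, a related coactivator, 0.21 ± 0.12. The lowest p among CREB genes were those of *Crebbp* (−0.13 ± 0.07) and *Creb1* (−0.12 ± 0.11), and among MAP kinases those of *Mapk12* (−0.30 ± 0.11) and *Mapk14* (−0.26 ± 0.10). Among 14 feedback inhibitors of MAP kinases edgeR called 0, 5 were lower and 1 was higher at the unadjusted level, and DESeq2 called *Dusp1* and *Dusp5*. *Dusp1*, a phosphatase that switches MAP kinases off and is itself an immediate early gene, had −0.46 ± 0.12 (adjusted p = 0.11), and *Dusp5* had −0.76 ± 0.21 (adjusted p = 0.114).

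Downstream, edgeR called 0 of 16 AP-1 and EGR target genes, DESeq2 called 6, all higher, and 7 were higher and 3 lower at the unadjusted level in edgeR, with a median of 0.57 beside 0.0 over all genes. In this contrast the macrophage markers had a median of 0.75 and the fibroblast markers of 1.15, and their part in the values of the target genes was not tested. *Timp1*, an inhibitor of matrix proteases, had 2.20 ± 0.50 (adjusted p = 0.104), and *Mmp14*, a membrane-bound matrix protease, had 1.24 ± 0.28 (adjusted p = 0.104). Of 10 MYC partners and antagonists 0 were called in both tools and 2 were higher at the unadjusted level, *Mxd3* (2.91 ± 1.06) and *Mxd4* (0.36 ± 0.14), which encode antagonists of MYC; *Mxd3* had group means of 0.392 CPM or less after sham and 1.53 (WT) and 3.03 CPM (F3-KO) after TAC. Of 16 MYC target genes 0 were called in both, 1 was lower (*Nop56*, −0.25 ± 0.10) and none was higher at that level, with a median of −0.01. *Nolc1* had −0.22 ± 0.12. Neither of the 2 corepressors of EGR proteins, *Nab1* (0.06 ± 0.09) and *Nab2* (0.08 ± 0.23), was called, nor was any of 7 heat shock genes, in either tool, with 1 higher at the unadjusted level (*Hspb1*, 0.28 ± 0.13; *Hsph1* had −0.24 ± 0.26). In the 5 other comparisons edgeR also called 0 genes of each of these lists. DESeq2 called *Ier5* for TAC in WT hearts, where it called 26 of all 15835 genes tested. For TAC in F3-KO hearts it called 2 primary response genes (*Sik1*, *Cebpb*) and 4 AP-1 and EGR targets, beside 442 of all 14718 genes. Between genotypes after TAC it called *Mapk10*, beside 94 of all 15835 genes.

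Of the hypertrophy markers *Nppa*, *Nppb*, *Acta1* and *Myh7*, edgeR called 2 over both genotypes, DESeq2 3 and limma 2. *Nppb*, which encodes a natriuretic peptide, rose by 1.86 ± 0.20 on the log2 scale (adjusted p = 0.0105), from 95.0 to 154.7 CPM in WT sham to 411 to 776 CPM in WT TAC hearts and from 172 to 311 CPM in F3-KO sham to 584 to 647 CPM in F3-KO TAC hearts. *Acta1*, the skeletal muscle actin of the fetal gene programme, rose by 3.36 ± 0.48 (adjusted p = 0.0248). All 4 markers were higher at the unadjusted level. Over both genotypes, the same test on the same hearts thus called *Nppb* and *Acta1*, with none of the 10 immediate early genes past the threshold. Within one genotype edgeR called 0 of the 4 markers, with a smallest adjusted p of 0.0679 in WT and 0.144 in F3-KO hearts. The changes of *Nppb* and *Acta1* were also larger than those of *Myc* (0.96 ± 0.23) and *Jun* (0.48 ± 0.13).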

How the data were processed

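RNA of 12 hearts, 3 biological replicates in each of 4 groups, was taken up in Trizol and sequenced at BGI. Groups were taken from the labels. The authors filtered reads with SOAPnuke and mapped them, per their processing notes, with HISAT2 2.0.4 and STAR 2.3.0. The counting tool, the annotation and the build used are not given in the sources used here; the notes list mm8 and mm9 without a role. The deposited values are estimated counts per gene by NCBI gene identifier, not normalised, and 40.6% were not whole numbers (tolerance 1e-06). Of the 120 values of the 10 genes, 38 were not whole, all of them in *Junb*, *Egr2*, *Nr4a1* and *Myc*. Reads shared with other genes could move these values, which was not tested. Strand use in counting is not stated.

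Counts had been assumed whole and were rounded. Genes were kept by filterByExpr (minimum count 10; 14094 genes), normalised by TMM (factors 0.931 to 1.09) and modelled as 4 groups by the quasi-likelihood test of edgeR 4.0.16 (R 4.3.3). A gene was called where p, adjusted over all genes after Benjamini and Hochberg, was under 0.05. A fold change is given on the log2 scale with its SE, and log2 CPM used a prior count of 2. Alternatives were DESeq2 1.42.0, limma 3.58.1 (limma-trend), other scalings and filters, the replicate number as a block, only the hearts compared, and each heart left out. Leaving out F3-KO TAC replicates 2 and 3 together was chosen after seeing the data. The permutation of sham and TAC within each genotype was not among the planned tests. The tests were tried on simulated data with known changes.

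Genes named were the 10 members, *Fabp3*, in each pathway list the genes called by edgeR (up to 4 by lowest p) or otherwise the 2 with the lowest p, and the 10 genes most like *Fos*; the lung markers and the genes that only DESeq2 called were named after their values were seen. The members and lists were chosen with earlier results of these data known. Lists of T cell, adipocyte, neutrophil and red blood cell markers were read as well; their sums were at most 2.91, 0.911, 35.7 and 4656 CPM, and edgeR called 0 of their tested genes for TAC over both genotypes. Tables of single hearts held the values of the joint table for the 11 hearts compared, and replicates of one group differed by more than sampling noise (chi-square per degree of freedom 9.9 to 79.2).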

Additional observations from a re-analysis of the deposited data

How the results depend on the processing

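Depth limited *Egr2* most, with 4 counts in its lowest heart, and 3 hearts per group limited each comparison. The count of called genes stayed at 0 of 10 in every comparison under DESeq2's size factors, library totals, limma-trend and the replicate block. It stayed at 0 with both other filters too (*Egr2* had no value with at least 10 counts in every library). In the 4 comparisons of 2 groups it was 0 with only the hearts compared. It changed to 2 (*Jun*, *Myc*) for TAC over both genotypes under DESeq2. Leaving out single hearts gave 0 to 2 for TAC over both genotypes, 0 to 1 for TAC in F3-KO hearts and 0 elsewhere, and both exceptions were without F3-KO TAC replicate 3. Deviations of same-numbered hearts correlated at −0.141 to 0.362, above 0.1 in 4 of 18 pairs, and those of differently numbered hearts at −0.359 to 0.196. The highest value was that of WT TAC replicate 3 with F3-KO TAC replicate 3. Whether hearts of the same number were handled together was not tested. With the replicate block 0 of 10 genes were called in each comparison. Of the single log2 fold changes, 54 of 1234 alternative values turned sign, and the cause was not tested. With library totals these were *Fosb* in sham hearts between genotypes (−0.01), *Jun* in TAC hearts between genotypes (0.08), the interaction of *Nr4a1* (0.05) and *Egr1* over both genotypes (0.03). With limma-trend they were *Fosb* for TAC in F3-KO (−0.12) and over both genotypes (−0.24) and the interaction of *Nr4a1* (0.0), and with the block *Fosb* over both genotypes (−0.14). Without F3-KO TAC replicates 2 and 3 they were *Jun* in TAC hearts (0.13), the interaction of *Nr4a1* (0.23), and over both genotypes *Fos* (0.03), *Egr1* (0.4) and *Ier2* (0.06).

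Leaving out single hearts moved these values across 0. For TAC in WT hearts *Egr2* ranged from −0.16 to 0.72 and *Ier2* from −0.45 to 0.02. For TAC in F3-KO hearts *Fos* ranged from −0.12 to 1.26, *Fosb* from −1.21 to 1.02, *Egr1* from −0.06 to 1.05 and *Ier2* from −0.13 to 0.25. Between genotypes after sham *Fosb* ranged from −0.14 to 0.2, *Egr2* from −0.75 to 0.21, *Ier2* from −0.02 to 0.45 and *Myc* from −0.01 to 0.33. Between genotypes after TAC *Fos* ranged from −0.28 to 1.1, *Fosb* from −0.83 to 1.39, *Jun* from −0.14 to 0.09, *Junb* from 0.0 to 0.43 and *Myc* from −0.48 to 0.27. The interaction ranged from −0.85 to 1.37 for *Fosb*, −0.4 to 0.51 for *Nr4a1* and −0.7 to 0.06 for *Myc*. Over both genotypes *Fosb* ranged from −0.78 to 0.34, *Egr1* from −0.36 to 0.2, *Atf3* from −0.17 to 0.31 and *Ier2* from −0.2 to 0.04. The number of genes above the median spread was 8 to 10 without single hearts. The correlation with *Fos* turned sign for *Fosb* without its 2 farthest hearts (−0.17) and for *Jun* on log2 CPM as measured (−0.19).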
